A study of Mus musculus with 10 samples.

Results

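The transcripts described here are the 2134 of 22064 listed genes that had 10 or more reads in the 1 library labelled Th1, set against 3 libraries that the labels call macrophages. The members were chosen on the read count of the Th1 library alone, so their presence in that library is the rule and not a result. All 4 libraries came from spinal cords taken on day 18 of experimental autoimmune encephalomyelitis (EAE), an immunization model of multiple sclerosis, in mice of the genotype Pdgfra-CreER:Apc-fl/fl. In these mice loxP sites flank Apc, and a tamoxifen-inducible Cre is driven by Pdgfra, a gene of oligodendrocyte precursors. The immune cells therefore carry floxed Apc in both groups, and no sorted group without the floxed alleles was analysed here. The labels call the first group cytotoxic macrophages, sorted as CD11b+Gr-1+NK1.1+ cells. The second was sorted as CD4+ cells and labelled Th1, and no further gate is given for it. No source used here says how many animals went into a library. The series as a whole holds 10 libraries, of which the others are oligodendrocyte precursor cultures, wild-type and Apc-deleted, kept for 3 days.

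Th1 cells are CD4+ helper T cells. They recognise antigen through the T cell receptor and its CD3 chains, signal through the Src family kinase Lck, and make interferon gamma under the transcription factor T-bet, encoded by Tbx21. In EAE they enter the spinal cord together with monocytes and neutrophils. Genes with epithelial functions, such as the keratins of simple epithelia and the tight junction protein claudin 4, are known chiefly from barrier tissues.

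The library labelled Th1 summed to 3051730 estimated reads and the macrophage libraries to between 23174908 and 23564215, which is 7.59 to 7.72 times deeper. In the macrophage libraries a list of 14 neutrophil genes summed to 435338 TPM (a length-corrected level) and a list of 17 macrophage and monocyte genes to 34425 TPM. The libraries keep the name of their label here, and what is called the macrophage level holds more of these neutrophil transcripts than of the macrophage ones. To allow for depth, each gene's macrophage level was scaled to the depth of the Th1 library. This gave its expected reads, the number the Th1 library would hold if the gene took the same share of reads in both. The macrophage libraries differed from each other by slightly more than counting noise, with a mean chi-square per gene of 1.29 to 2.53 (1 is counting noise) and a coefficient of variation of 2.24% in edgeR. No source used here says whether they came from separate animals, so SDs and p-values reflect how far these 3 libraries lie apart and may hold technical spread alone. With 1 library, no difference of the Th1 group has a replicate check.

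Most genes with a value in the Th1 library had few reads. Of 6550 genes with a value, 3723 (56.8%) had 3 or fewer reads, 583 had from 10 to under 100, and 1551 had 100 or more. The members had a median of 520.6 reads and took 99.7% of all reads of that library, against 75.7% to 75.9% in the macrophage libraries. The gene with most reads was Fth1, the ferritin heavy chain that stores iron, with 41091 reads and 15901 TPM. TPM divides reads by transcript length and brings every library to one total, so it allows levels of different genes to be compared. Ribosomal protein, mitochondrial and predicted genes were left out of the ranking by TPM, and ribosomal protein genes alone made up 34.7% of TPM. Other leading transcripts among the genes ranked were S100a8, a neutrophil calcium-binding protein, at 13945 TPM, and Ftl1, the ferritin light chain, at 12218 TPM. Lyz2, the lysozyme of myeloid cells, stood at 11006 TPM and Tmsb4x, an actin-binding peptide, at 9417 TPM.

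If each gene took the same share of reads as in the macrophage libraries, 8014 genes would have had 10 or more reads in the Th1 library, and 1825 of them (22.8%) reached it. In 3117 of them no read was found. The share that reached 10 reads rose with the macrophage level, from 11.1% of 2781 genes expected at 10 to 30 reads to 78.1% of 366 genes expected at 1000 or more. Even among these 366 genes, 31 (8.47%) had no read in the Th1 library. A missing transcript in this library is therefore read below beside its expected reads, and the limit that a count of 0 allows (3 reads, or 0.983 CPM) covers counting error only.

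**Figure D1:**
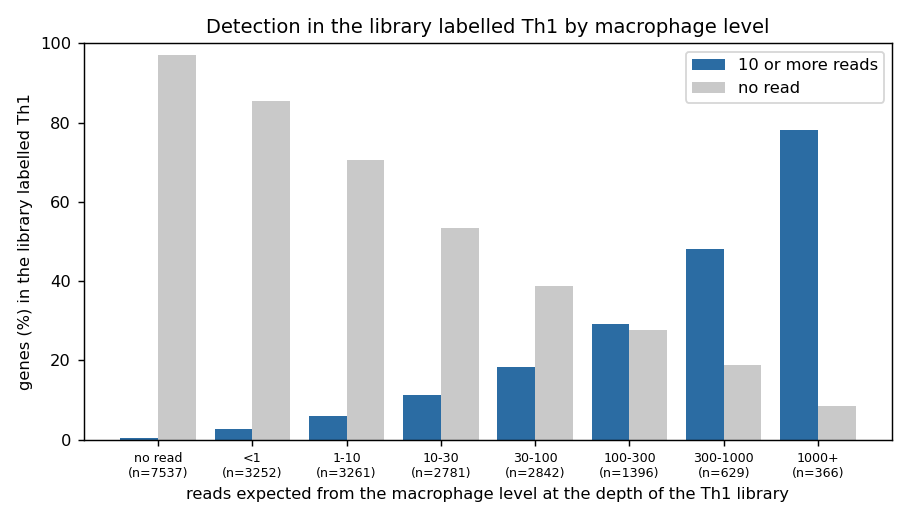
Share of genes (%, vertical axis) with 10 or more reads (blue) or no read (grey) in the library labelled Th1, by the reads expected from the macrophage mean at that depth (horizontal axis, with the number of genes). The blue share climbs from 0.345% of genes without macrophage reads to 78.1% of those expected at 1000 or more.

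In the comparison with the macrophage libraries, edgeR tested 11447 genes. A gene was called when its adjusted p was under 0.05 and its fold 4 or more. By this rule 68.2% of the genes (7812) were called, 13.7% (1567) being higher in the Th1 library and 54.6% (6245) lower. Of the members, 2129 were tested, and 1482 of these (69.6%) were higher while 82 (3.85%) were lower. Members had to be read in the Th1 library, so their share above the macrophages is set by the rule and nothing is read from it. The median log2 difference was 3.50 over the members and -5.61 over all genes tested. The split of calls depended on the scaling. Higher genes made up 20.1% of calls with TMM scaling, 36.9% with DESeq2 size factors, 43.7% in the DESeq2 Wald test and 11.9% with library totals alone. Against TMM, the DESeq2 size factors moved the median of all genes by 1.29 on the log2 scale and the totals by -0.64. Expected reads are based on library totals, so log2 differences with TMM lie above the ratio of reads to expected reads. Lck, for example, differed by 9.33 with TMM and 7.84 with library totals, and Lyz2 by -0.34 and -1.84. With TMM the 14 genes of a housekeeping list had a median log2 difference of 2.38. With so many calls, the reads and the size of a difference are given first below, and an adjusted p adds little.

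**Figure D2:**
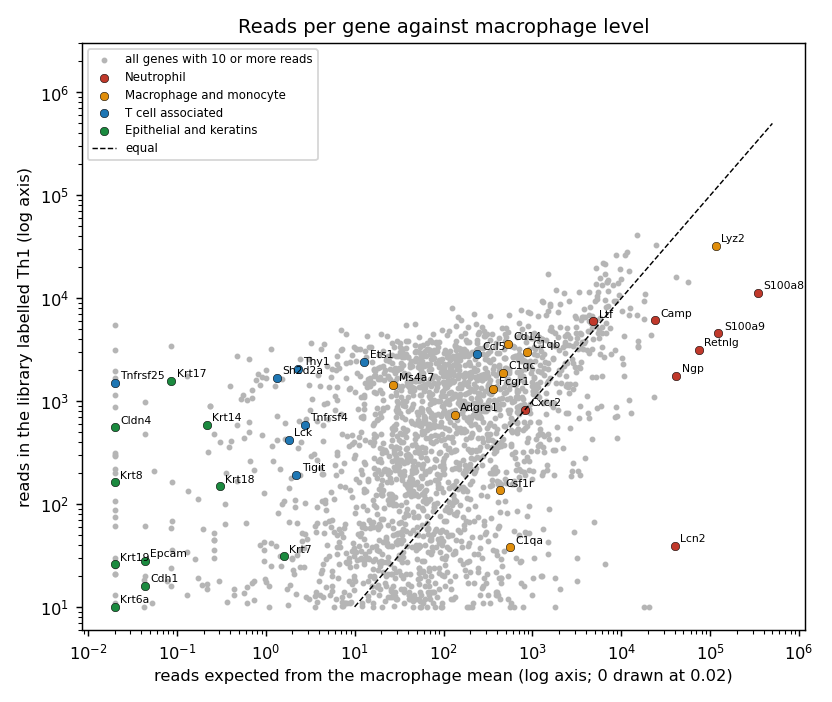
Reads in the library labelled Th1 (vertical log axis) against the reads expected from the macrophage mean (horizontal log axis, with 0 drawn at 0.02) for the 2134 genes with 10 or more reads, with 4 groups of genes coloured. Most neutrophil genes lie on or below the line of equal share, while the keratins and Cldn4 lie above it, as do the T cell associated genes shown. Genes under 10 reads, most of the T cell associated list, are not drawn.

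The measured genes that define the label were mostly at 0. The T cell receptor genes Trac, Trbc1 and Trbc2 are not among the 22064 listed genes and could not be read. Of 19 measured T cell genes, 1 reached 10 reads and 17 had no read. That gene was Lck (chromosome 4, 129548344 to 129573641), with 422 reads and 66.3 TPM in the Th1 library. In the macrophage libraries Lck had 13, 13 and 16 reads, or 0.163 ± 0.0231 TPM (SD, n = 3). The log2 difference of Lck was 9.33. Lck is a member through its reads in the Th1 library, so no test is given for it. The CD3 genes Cd3e, Cd3d and Cd3g, the zeta chain gene Cd247, the kinase gene Zap70 and its adaptor gene Lat all had no read. Of these, Cd3d alone was expected at 10 or more reads, 18.3 of them, from a macrophage level of 148, 123 and 151 reads. All but 1 of the 19 genes were expected at under 10 reads from their macrophage level, which does not tell how many reads CD4+ cells would give. Over the 8 T cell genes tested the median log2 difference was -6.37, with 1 gene higher and 1 lower, beside -5.61 over all genes tested.

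CD4 itself had no read. Of the 8 genes of the CD4 and helper lineage, 1 reached 10 reads. It was Tnfrsf4, the costimulatory receptor OX40 of activated T cells, with 591 reads against 23, 24 and 16 reads in the macrophage libraries and an expected 2.74. Zbtb7b, the transcription factor gene that commits cells to the CD4 lineage, had none against an expected 60.3, and the regulatory T cell gene Foxp3 had none.

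The Th1 programme was read through 1 gene as well. Ccl5, a chemokine of T cells and of activated myeloid cells (chromosome 11, 83525778 to 83530518), had 2863 reads and 2265 TPM in the Th1 library. The macrophage libraries had 1770, 1913 and 1835 reads of Ccl5, or 122.9 ± 4.24 TPM (SD, n = 3). The log2 difference of Ccl5 was 5.07, and no test is given because Ccl5 too is a member through its Th1 reads. The Th1 level thus exceeded all 3 macrophage libraries, which also expressed the gene. Tbx21, Ifng (interferon gamma), Cxcr3 and Il12rb2 had no read, and of these none was expected at more than 3.56 reads from the macrophage level. That level does not tell how many reads CD4+ cells would give. Stat4, a transducer of interleukin 12 signals, had none against an expected 12.1 reads, and Runx3 had none against 18.2. Of 11 Th1 genes tested 1 was higher and 6 were lower, which is near the 13.7% and 54.6% of all genes tested.

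No gene of other lymphocyte lists reached 10 reads among 10 genes of Th2 and Th17 cells, 8 of CD8 and cytotoxic cells, 11 of natural killer (NK) cells and 7 of B cells. The granule genes Gzma and Nkg7 had no read against an expected 35.7 and 60.5. Klrb1c, which encodes the NK1.1 antigen used in the macrophage sort, had no read in the Th1 library and 8, 11 and 6 reads in the macrophage libraries. Of the genes of Gr-1, another sort antigen, Ly6g and Ly6c2 were abundant in the macrophage libraries. Ly6g had from 23487 to 24659 reads there, and Ly6c2 had from 179840 to 186011. In the Th1 library both had no read, while the related gene Ly6c1 had 4294 reads against an expected 158.9. The gene of the sort antigen CD11b is not reported here.

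Some genes that T cells use, but that other cells use too, were read far above the macrophage level. A wider list of 35 T cell associated genes was drawn up after the values were seen and serves as a description only; 6 of them reached 10 reads. Ets1, a transcription factor of lymphocytes, had 2419 reads against an expected 12.8. Thy1, the surface protein Thy-1 of T cells, neurons and fibroblasts, had 2073 reads against 20, 11 and 22 in the macrophage libraries. Sh2d2a, the T cell specific adaptor of Lck, had 1689 reads against 9, 10 and 12. Tnfrsf25, the death receptor 3 of T cells, had 1496 reads and none in any macrophage library. Tigit, an inhibitory receptor of T and NK cells, had 193 reads against an expected 2.21, from macrophage values that were partly shared with other genes. In the same list 27 genes had no read, among them Il2rg, the common cytokine receptor chain, against an expected 243 reads, and Ltb, lymphotoxin beta, against 207.

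In the kinase and adaptor genes of T cell receptor signalling, 4 of 24 reached 10 reads, and 4 of the 17 tested were higher while 10 were lower, beside 13.7% and 54.6% of all genes. Besides Lck these were Ptprc, the phosphatase CD45 that activates Src kinases, with 2248 reads, Csk, the kinase that inhibits them, with 524, and Syk, a kinase of myeloid and B cells, with 485. The expected reads were 1220 for Ptprc, 159.7 for Csk and 211.5 for Syk. As shares of reads these 3 genes were 1.84, 3.28 and 2.29 times the macrophage level, under the 4-fold threshold that they pass with TMM.

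**Figure D3:**
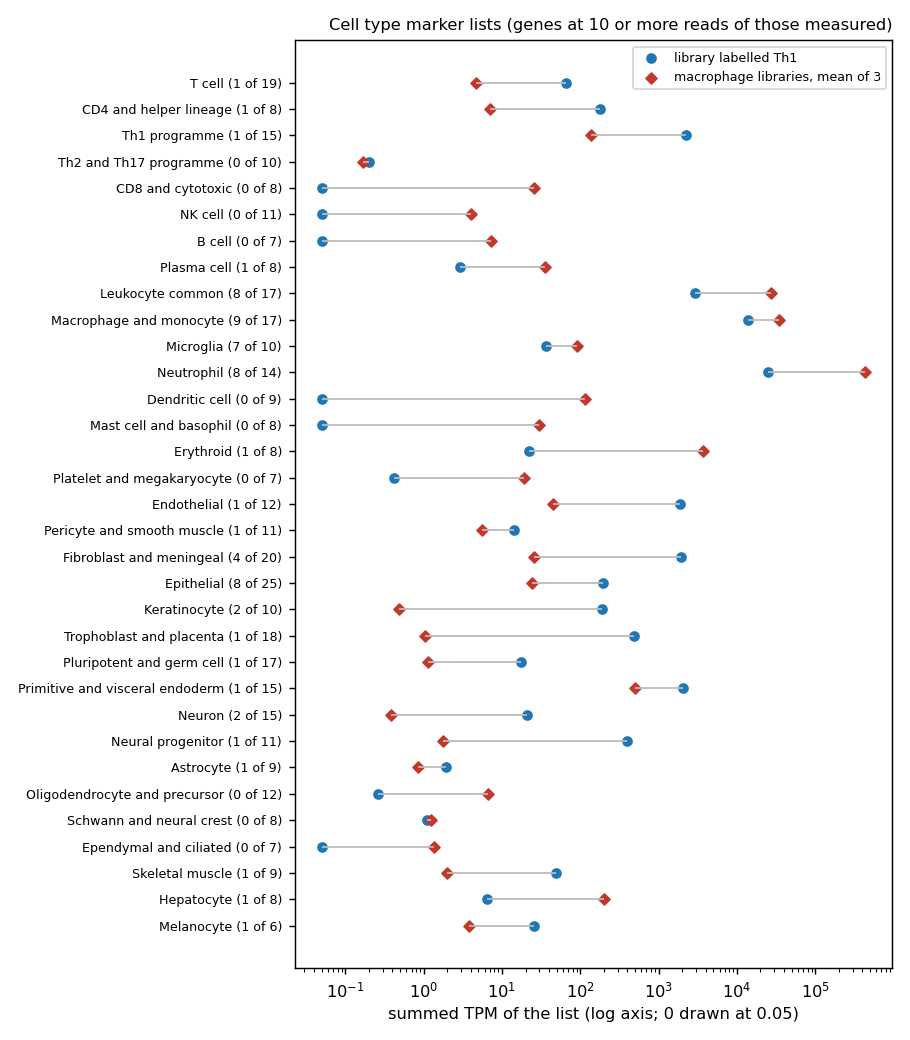
Summed TPM (horizontal log axis, with 0 drawn at 0.05) of 33 marker lists in the library labelled Th1 (blue) and in the macrophage libraries (red, mean of 3), with the genes at 10 or more reads of those measured. The neutrophil list leads in both, at 25190 TPM in the Th1 library and 435338 TPM in the macrophage libraries, and 15 of the 33 lists have 1 gene at 10 or more reads.

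Myeloid transcripts made up more of the library than those of the T cell genes measured. Of 14 neutrophil genes, 8 reached 10 reads, and their list summed to 25190 TPM against 435338 ± 1605 TPM (SD, n = 3) in the macrophage libraries. S100a8 had 11351 reads against an expected 346859, and its partner S100a9 had 4554 against 123446. The antimicrobial granule genes Camp and Ltf had 6117 and 5944 reads, against an expected 23769 for Camp and 4819 for Ltf. The resistin-like gene Retnlg had 3134 reads against an expected 74671, and Ngp, a neutrophil granule protein gene, had 1759 against 41336. Lcn2, lipocalin 2, had 39 reads against an expected 40187. Ly6g, Mmp8, Mmp9 and Elane had none against between 258 (Elane) and 3161 (Ly6g). Of the 14 genes 11 were lower and none higher at the threshold, with a median log2 difference of -4.14 beside -5.61 over all genes tested. S100a8 and S100a9 differed by -3.44 and -3.26 on the log2 scale with TMM, and by -1.92 and -1.75 with DESeq2 size factors, which misses the fold threshold. Ltf was 3.31 higher with DESeq2 size factors, which passes it.

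Of 17 macrophage genes, 9 reached 10 reads, with 6 higher and 6 lower among the 17 tested, beside 13.7% and 54.6% of all genes. Lyz2 had 32517 reads against an expected 116166. Cd14, the lipopolysaccharide co-receptor, had 3597 reads against 525.7. Ms4a7 had 1444 reads against 27.1, Fcgr1, the high-affinity IgG receptor, had 1321 against 361.7, and Adgre1, the F4/80 antigen, had 733 against 133.6. Ly6c2, Plac8 and Ccr2, genes of inflammatory monocytes, had no read against expected values from 615 for Ccr2 to 23871 for Ly6c2. Cd68, a lysosomal protein of macrophages, had 6 reads against 1298. Lyz2 lay 0.34 below the macrophages on the log2 scale with TMM, and 1.18 above them with DESeq2 size factors.

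Genes of one complex were read unevenly. C1qa, C1qb and C1qc encode the 3 chains of the complement component C1q. The Th1 library had 3017 reads of C1qb and 1872 of C1qc, both above the expected 868.3 and 469.5, and 38 of C1qa against 558.8. Their calls depended on the scaling. C1qb and C1qc differed by 3.29 and 3.49 on the log2 scale with TMM and by 1.80 and 1.995 with library totals, which misses the fold threshold, and C1qa by -2.38 with TMM and -0.87 with DESeq2 size factors. The class II antigen presentation gene H2-Aa had 4935 reads against 1592, while H2-Ab1, which encodes the partner chain, had 2 reads against 1482 and H2-Eb1 had 1 against 648. Tyrobp, the adaptor DAP12 of myeloid receptors, had 1100 reads against 23496, and Fcer1g, the related adaptor, had 10 against 18100. Of the leukocyte genes as a list, 8 of 17 reached 10 reads, among them Laptm5 with 6095 reads and Was with 1700, while Rac2, a small GTPase of blood cells, had none against 4568.

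**Figure D4:**
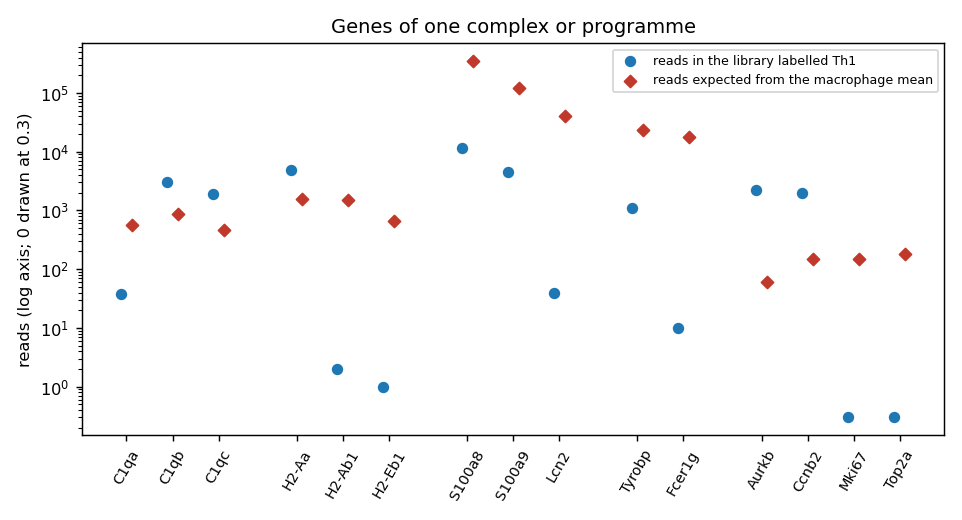
Reads in the library labelled Th1 (blue circles) and reads expected from the macrophage mean (red diamonds) on a log axis with 0 drawn at 0.3, for genes of one complex, pair or programme. C1qa, H2-Ab1, H2-Eb1, Lcn2 and Fcer1g lie far below their partners in the Th1 library, while the red diamonds of a set lie closer together.

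The genes found in the Th1 library without any macrophage read numbered 26, of which 22 have a gene name and 4 are predicted models. They had from 10 to 5484 reads and took 0.600% of the reads of the library. These genes were chosen for a macrophage count of 0, so the contrast is the choice and no test is given for them here. Among all 7537 genes without a macrophage read, they make up 0.345%. Taking 3 reads over the whole macrophage group as the limit of a count of 0, their levels were at least 76.7-fold (Krt6a) to at least 42058-fold (Ppic) higher as a share of reads. A further 23 genes had 1 to 3 macrophage reads in all, which gives 49 genes and 0.897% of the reads.

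Among the lists of cell types, the epithelial list held the most of these 49 genes, 5 of them. It is also the longest of these lists, with 25 genes, so nothing is read from that rank. The share over all genes with 3 or fewer macrophage reads was not computed. Cldn4, the tight junction protein claudin 4 (chromosome 5, 134945123 to 134946934), had 554 reads and 102.9 TPM. Krt8, the type II keratin of simple epithelia (chromosome 15, 101996711 to 102004342), had 161.9 estimated reads, some of them shared with other genes. Krt19, a type I keratin (chromosome 11, 100140810 to 100145926), had 26 reads, and none of the 3 genes had a read in any macrophage library. Krt18, the keratin that pairs with Krt8, had 148 reads against 2, 1 and 4 macrophage reads. Epcam, the epithelial adhesion molecule, had 28 reads and Cdh1, E-cadherin, had 16, against 1 macrophage read each. In all, 8 of 25 epithelial genes reached 10 reads and 6 had none. Of 14 tested 8 were higher and 2 were lower, beside 13.7% and 54.6% of all genes. Their median log2 difference was 4.31, beside -5.61 over all genes tested. Of the 25 genes 10 had no macrophage read, and such genes were tested only when read in the Th1 library. The calls and the median are therefore partly set by that filter, and nothing is read from them. The epithelial regulators Grhl2 and Esrp1 had no read in any of the 4 libraries, while Grhl1 had 1049 reads against 6, 6 and 0 macrophage reads. In a list of epithelial transcription and Hippo pathway genes, drawn up after the values were seen, 4 of 15 reached 10 reads and 4 had none.

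Keratins of stratified epithelium were read as well. Krt17 (chromosome 11, 100256215 to 100261029) had 1585 reads and 403.9 TPM against 0, 1 and 1 macrophage reads. Krt14, the keratin of basal keratinocytes, had 588.9 reads against 0, 0 and 5, while its partner Krt5 had 3. The estimated reads of Krt17 and Krt14 in the Th1 library were not whole, so some of them were shared with other genes. In the keratinocyte list 2 of 10 genes (Krt14 and Sfn) reached 10 reads. Krt6a had 10 reads and no macrophage read. Cst6, the epidermal protease inhibitor cystatin E/M, had 1772 reads against 3 in 1 macrophage library. Of claudins and tight junction genes, Cldn4 alone of 28 reached 10 reads.

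The upstream sequences of Cldn4, Krt8 and Rhox5 are shown as examples of genes with reads in the Th1 library and none in the macrophages. They are the 250 bases before the transcription start in RefSeq (GRCm38.p6), in the direction of transcription. Cldn4 lies on the minus strand (chr5:134946935-134947184), Krt8 on the minus strand (chr15:102004343-102004592) and Rhox5 on the plus strand (chrX:37754358-37754607). Capitals mark a GC box core, searched as GGGCGG on both strands, and a TATA box, searched as TATAAA on both strands.
Cldn4: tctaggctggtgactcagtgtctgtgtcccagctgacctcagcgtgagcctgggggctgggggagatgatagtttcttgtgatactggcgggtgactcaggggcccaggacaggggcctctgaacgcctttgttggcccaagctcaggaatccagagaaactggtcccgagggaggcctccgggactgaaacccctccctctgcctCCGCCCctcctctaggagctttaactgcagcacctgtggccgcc
Krt8: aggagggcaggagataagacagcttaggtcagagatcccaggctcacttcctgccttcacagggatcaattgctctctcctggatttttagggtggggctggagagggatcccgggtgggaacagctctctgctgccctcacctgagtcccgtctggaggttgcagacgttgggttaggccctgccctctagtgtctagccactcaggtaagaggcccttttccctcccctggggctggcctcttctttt
Rhox5: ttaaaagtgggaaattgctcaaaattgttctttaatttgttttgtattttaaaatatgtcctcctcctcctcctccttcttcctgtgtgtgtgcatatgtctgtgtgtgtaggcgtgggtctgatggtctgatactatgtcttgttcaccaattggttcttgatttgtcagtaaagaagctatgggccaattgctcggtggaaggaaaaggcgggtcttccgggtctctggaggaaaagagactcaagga
The Cldn4 window held 1 match of the GC box core and none of the TATA box, and the other windows held neither. Over all 32851 RefSeq promoters of that length, 32.7% held the GC box core and 12.4% the TATA box. Over the 20 promoters matched to the 26 genes without macrophage reads, 7 held the GC box core (35%) and 1 the TATA box. Over the 2195 promoters matched to members, 54.8% held the GC box core and 8.38% the TATA box. A match or its absence describes these letters only.

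Of the placental and reproductive homeobox genes, Rhox5 and Rhox7a were read. Rhox5 (chromosome X, 37754608 to 37808878), a homeobox gene known from placenta, testis and epididymis, had 1151 reads and 490.0 TPM. Its neighbour Rhox7a (chromosome X, 37831686 to 37841171) had 297 reads. The other 14 of 16 Rhox genes had no read, and none of the 18 trophoblast genes apart from Rhox5 reached 10 reads. Within that list Elf5 and Tfap2c, transcription factor genes of trophoblast, had 3 reads each, and Cdx2, Hand1 and the prolactin family genes had none. Nanog was the pluripotency gene read, with 108.8 reads that were partly shared with other genes, and Pou5f1, Sox2 and the other 14 of that list had none.

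Among the remaining genes without macrophage reads, functions were mixed. Ppic, cyclophilin C, a prolyl isomerase of the secretory pathway, led with 5484 reads and 1485 TPM. Eps8l2, an actin-regulating protein gene, had 3111 reads. Nr2f1, the nuclear receptor COUP-TFI known from neural development (chromosome 13, 78188971 to 78198873), had 1978 reads and 398.7 TPM. Mkrn3, an imprinted gene (chromosome 7, 62417593 to 62420153), had 1685 reads. Rarres2, which encodes the chemoattractant chemerin, had 869, and Adm2, a peptide hormone gene, had 314. Tead4, a transcription factor of the Hippo pathway, had 290 reads, and its coactivator gene Yap1 had 58 against 1, 1 and 0 macrophage reads. Atp6v0a4, a proton pump subunit gene, had 218 reads. Ccl22, a chemokine of dendritic cells and macrophages, had 75 reads, Ptprf, a receptor phosphatase gene, had 61, and Hoxc5 was the 1 of 39 Hox genes that reached 10 reads, with 11.

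**Figure D5:**
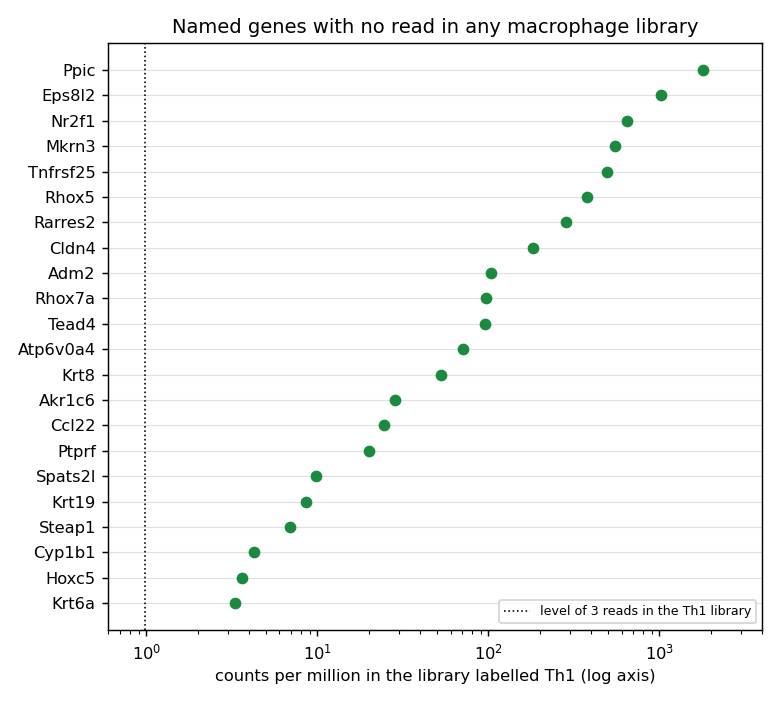
CPM (counts relative to the library total, log axis) in the library labelled Th1 for the 22 named genes that had 10 or more reads there and none in any macrophage library; the dotted line is the level of 3 reads. All points lie above the line, from Krt6a to Ppic, and T cell associated Tnfrsf25 lies among epithelial, homeobox and neural genes.

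The families of these genes were read through few members. Of 41 nuclear receptor genes, 5 reached 10 reads, led by Nr2f1, with Rxra at 195 reads and Nr2f6 at 169. In the neural progenitor list Nr2f1 alone of 11 genes did so, and in the retinoic acid list 1 of 18. Among cyclophilins and collagen-folding genes, 7 of 20 reached 10 reads. P4ha1, a collagen prolyl hydroxylase subunit, had 4277 reads against 22.9, and Serpinh1, the collagen chaperone, had 403 against 3, 3 and 1 macrophage reads. The collagen genes Col1a1 and Col3a1 had no read, as did Pdgfra, Lum and Twist1, and 4 of 20 fibroblast genes reached 10 reads (Ppic, Thy1, Serpinh1 and Sparc).

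Lists of other tissues were mostly at or near 0. No gene reached 10 reads among 12 oligodendrocyte genes, 8 Schwann cell genes, 7 ependymal genes, 9 dendritic cell genes, 8 mast cell genes or 7 platelet genes. In each of 9 further lists of cell types a single gene did. These were Ly6c1 of the endothelial list with 4294 reads, Acta2 of pericytes with 93.4, Apoe of endoderm with 7319, Acta1 of skeletal muscle with 211.7, Tyr of melanocytes with 475.5, Gja1 of astrocytes with 13, Trf of hepatocytes with 45, Xbp1 of plasma cells with 13, and the globin gene Hba-a2 with 30. The expected reads were 158.9 for Ly6c1, 1939 for Apoe, 78.0 for Acta2 and 3155 for Hba-a2, so the macrophage libraries held these transcripts too. For Acta1 and Gja1 they were 0.742 and 0.436. The list names say where a gene was listed and not its source here. Pecam1 and Cdh5, which define endothelium, had 1 and 0 reads. Of 15 neuronal genes 2 were read, Tubb3 with 99.1 and Syt1 with 24. Read counts of the Th1 library given here with a decimal include reads shared with other genes. Microglial genes reached 10 reads in 7 of 10 cases (Siglech, for example, had 12 reads), and no microglial gene was higher than in the macrophages at the threshold.

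Several genes with 1 to 3 macrophage reads in all were read at high levels. Slc7a3, a transporter of arginine and lysine on chromosome X, had 3431 reads and 498.4 TPM against 0, 1 and 1 macrophage reads. Lpar1, a receptor for lysophosphatidic acid, had 991 reads against 1 macrophage read, and Nckap1, a subunit of the actin-regulating WAVE complex, had 474 against 1. Plet1, a surface protein of placenta and epithelial progenitors, had 61 reads, and Kcnma1, a potassium channel gene, had 69. In a list of imprinted genes, which are expressed from 1 parental allele, 2 of 19 reached 10 reads. That list does not hold Mkrn3. Snrpn had 895.4 reads against 1.5, 1.5 and 2.5, the same values as its overlapping partner Snurf, so their reads cannot be told apart. Gnas, a G protein subunit gene, had 1769 reads against an expected 721.1.

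The members lowest against the macrophages were read at the minimum of 10 reads or little above it. Gpx1, glutathione peroxidase 1, had 10 reads against an expected 20502 and a log2 difference of -9.50, and Fcer1g and Lcn2 followed at -9.33 and -8.51. Arhgdib had 26 reads against 6495, a difference of -6.47. Nfkbia, the inhibitor of NF-kappa-B, had 10 reads against 1794, and Ucp2, a mitochondrial carrier of immune cells, had 18 against 3206. Fcgr3, an IgG receptor gene, had 15.0 reads against 2052, and the actin crosslinker gene Flna had 10 against 787.2. Among these 8 genes Lcn2 had the most reads in the Th1 library.

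The fixed lists together held 684 measured genes, of which 119 (17.4%) reached 10 reads, beside 9.67% of all listed genes. What share of the transcripts read in the Th1 library alone came from sorted cells or from another source was not tested. In bulk RNA fewer cells of a type and less RNA per cell cannot be told apart.

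The oligodendrocyte precursor cultures of the same series gave another comparison, from the authors' deposited table of mean normalized counts. These means pool wild-type and Apc-deleted cultures. Of the 26 genes without macrophage reads, 13 are in the authors' deposited table, and 5 have a mean of 100 or more there. This is 19.2%, beside 73.6% of all members and 44.9% of all listed genes. The 26 genes were chosen for having no macrophage read and the other sets were not, so these shares do not compare like with like. The share among all genes without a macrophage read was not computed. In the authors' deposited table Nr2f1 had a mean of 7476, Ptprf of 2584, Spats2l of 1430, Mkrn3 of 1113 and Ppic of 193.2. Krt19 had a mean of 6.44 and Tnfrsf25 of 4.59 in the authors' deposited table, while Cldn4, Krt8, Rhox5 and Rhox7a were among the genes with no entry there.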

How the data were processed

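RNA sequencing tables of 4 immune libraries were used. The genome build was GRCm38, per the submitters' processing notes, and no source used here names the aligner or the counting tool. Per the file headers, each table made by the authors gives read counts and TPM (counts corrected for transcript length, scaled to a common sum) for 22064 RefSeq genes. These are estimated counts as deposited, since 79.8% to 85.6% of values per library are exactly whole. Blanks were taken as 0. 8 columns were not used. The macrophage columns carry codes found in no label and were assigned to the group. The normalized mean signal of the culture table was used as deposited by the authors.

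Counts were rounded and tested with edgeR 4.0.16 (quasi-likelihood, TMM, filterByExpr, Benjamini-Hochberg over all genes tested; R 4.3.3) with calls where the adjusted p was under 0.05 and the fold 4 or more. The spread came from the macrophage libraries, and the lone library was assumed to vary like them. Alternatives were DESeq2 1.42.0 size factors and Wald test, limma 3.58.1 on log2(TPM + 1) as the log2 form of the deposited TPM, library totals, no filter, other read minimums and leaving out each macrophage library.

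Members and lists (49, plus 2 drawn up after values were seen) were chosen with earlier results of these data known. Genes named are the 6 markers given for the comparison, the 20 of highest TPM, those without macrophage reads (up to 25), the 10 largest calls each way, and in each list up to 6 members with most reads and the first 4 listed. Not all are printed, and a few more (among them the less-read genes of lists and those of the plot of partner genes) were chosen after values were seen. Predicted, mitochondrial and ribosomal protein genes were left out of the ranked picks but stay in every count. Positions and promoters are from RefSeq, GRCm38.p6, where 99.7% of gene identifiers matched. No source used here says whether counting used strand, so overlapping genes cannot be separated.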

Additional observations from a re-analysis of the deposited data

How the results depend on the processing

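The count of lower genes moved most with the method, from 6245 to 3440 with DESeq2 size factors, 2488 in the DESeq2 Wald test and 2713 with limma on log2(TPM + 1), and up to 8165 with library totals. Calls in both directions came to 4417 in the DESeq2 Wald test and 3863 with limma, and to 9263 with library totals, against 7812. The cause was not tested. Higher calls ranged from 1098 (library totals) to 2009 (DESeq2 size factors). Leaving out each macrophage library gave 1567 to 1575 higher and 6203 to 6223 lower genes. Lyz2 turned from -0.34 to 1.18 on the log2 scale with DESeq2 size factors and to 1.18 in the DESeq2 Wald test. The 26 genes without macrophage reads became 49 when up to 3 macrophage reads were allowed, 112 when up to 3 were allowed at the depth of the Th1 library, 19 at 30 or more reads and 20 with whole read counts only, and 28 to 34 without 1 macrophage library. The whole-count settings were chosen after seeing the data. Members numbered 2566 at 5 or more reads and 1840 at 30 or more.

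No paired analysis was possible because the Th1 group has 1 library and shares fewer than 2 replicate numbers with the macrophages. One library without a replicate, a depth of 3051730 reads and the absence of reads from abundant genes limit every statement on what is missing.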

Other observations

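Subunit sets of 3 complexes, chosen after the values were seen, are set beside all 2391 genes expected at 100 or more reads. Of those, 41.6% had at least 10 reads and 22.3% had none. All 81 ribosomal protein genes expected at 100 or more reads had at least 10, and they made up 34.6% of TPM against 15.0% in the macrophage libraries. The SD of their log2 ratio to the expected reads was 0.89, against 0.0633 between 2 macrophage libraries. Of 30 proteasome genes 16 reached 10 reads and 3 had none, with an SD of 4.40. Of 73 respiratory chain genes 46 did and 7 had none, with an SD of 4.28. The sets were not matched on expected reads, and the differences between them were not tested.

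Most of the cell cycle genes were lower than in the macrophage libraries, and 5 were higher. Aurkb, a mitotic kinase gene, had 2205 reads against an expected 60.9, Ccnb2, a mitotic cyclin gene, had 2003 against 149.2, and Rrm2, a ribonucleotide reductase subunit gene, had 1452 against 102.3. Mki67, Top2a, Ccnb1 and Cdk1 had no read, against between 71.3 (Ccnb1) and 181 (Top2a). Of the 24 proliferation genes tested, 5 were higher and 17 lower, beside 13.7% and 54.6% of all genes, with a median log2 difference of -9.48 beside -5.61 over all genes tested.

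Chemokine genes other than Ccl5 differed among themselves. Ccl7, a monocyte chemoattractant, had 4300 reads against 99, 116 and 104 in the macrophage libraries, and Ccl2 had 1467 against an expected 626.7. Cxcl2, a neutrophil chemoattractant, had none against 3620, and Ccl3 had 3 against 497 while Ccl4 had 609 against 329.7. The inducible heat shock gene Hspa1b had 401.9 reads against an expected 2.52, with some reads shared with other genes. Of 49 genes with at most 3 macrophage reads, 5 (10.2%) lie on chromosome X, beside 4.41% of all listed genes and 3.33% of all members, and Rhox5, Rhox7a and Slc7a3 are the named ones. Chromosome 4 holds the most of the 49, 7 of them (14.3%), beside 6.11% of all listed genes. It is named for that rank, and Rhox5 and Rhox7a are neighbours, so nothing is read from these shares.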
